A study of Rattus norvegicus with 24 samples.

Results

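The hippocampus of growth hormone (GH)-deficient dwarf rats was compared with that of heterozygous rats at 42 days of age, after 7 days of saline treatment. The comparison used the 4 arrays whose titles name dw/dw rats with saline for 7 days and the 4 arrays whose titles name HZ rats at 7 days, 8 of the 24 arrays of the series. The dw/dw rats were of the strain labelled HsdOla:DWARF-dw-4, homozygous for the dw allele, and received saline. The HZ rats were of the stock labelled HsdOla:DWARF-dw-4 HZ, carried the same allele in the heterozygous state, and also received saline. No wild-type rats were in these groups, and the labels used here do not give the sex. The deficiency is inherited, so the 7 days give the length of the saline treatment and not that of the deficiency. For reference, values are also given for dw/dw rats that received 300 µg GH for 7 days and for the same dw/dw saline and HZ saline groups at 30 days, when the animals were 65 days old. The series' design text gives 4 animals per group and time point, and each array carried total RNA of a dissected hippocampus on an Illumina rat expression array.

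GH is secreted by the anterior pituitary and acts through its receptor, the kinase JAK2 and the transcription factor STAT5, which switches on feedback genes such as Socs2 and Cish. In liver the same route drives the output of insulin-like growth factor 1 (IGF-1), which signals through the IGF-1 receptor and AKT and is held in the circulation by IGF binding proteins. The dw rat has a recessive deficiency of pituitary GH. The hippocampus is the forebrain region best known for its part in learning and memory, and both GH and IGF-1 are known to act on its neurons.

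Every level below is a normalized log2 signal, on which background lay near 6.1, and every difference is dw/dw saline minus HZ in log2 units with its standard error (SE). Differences and p-values come from 1 limma fit over all 24 arrays, with p-values adjusted over all tested probes. The share of probes detected was 45.7% to 50% on the dw/dw saline arrays, against 45.3% to 47.8% on the HZ arrays. The median signal before normalization was 53.7 to 56.7 on the dw/dw saline arrays and 46.5 to 52.7 on the HZ arrays, without overlap. Any 2 dw/dw saline arrays correlated at 0.995 to 0.998 across tested probes, any 2 HZ arrays at 0.994 to 0.997, and a pair with 1 array of each at 0.993 to 0.998. The 12 arrays at 7 days shared 1 slide, with dw/dw saline at positions 1 to 4 and HZ at positions 9 to 12, so group and a position effect shared by a block cannot be told apart. Fits with slide position as a covariate took its slope from arrays within the same group and extended it over the distance between groups. Their values are therefore imprecise, and no effect of position is read from them. All 11 hippocampal neuron markers named on the array were detected on all 24 arrays, among them the calmodulin-binding protein gene Nrgn, with a mean of 13.23 in dw/dw saline rats and 13.20 in HZ rats.

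No probe passed the adjusted threshold of 0.05 at 7 days, 0% of the 11487 tested, and the lowest limma adjusted p was 0.43. At an unadjusted limma p under 0.05 there were 758 probes, 6.6% of those tested, of which 429 (3.73%) had higher and 329 (2.86%) lower values in the dwarfs. The split was 56.6% higher with quantile normalization and 94.7% higher when arrays were only scaled to a common median. Positive differences made up 52.4% of all tested probes. Differences were small, with a median of 0.0018 and quartiles of -0.021 and 0.026, against a median SE of 0.040. An absolute difference over 0.25 was seen for 131 probes (1.14%), over 0.5 for 12 (0.104%) and over 1 for 0. The values of the 4 dw/dw saline and the 4 HZ arrays did not overlap for 323 probes (2.81%), 182 of them (1.58%) higher and 141 (1.23%) lower in dw/dw saline rats. Of the 24 probes with the smallest p, 12 had no gene name in the annotation used, and they are not described. Hippocampal RNA was measured in bulk, so fewer cells of a type and less RNA per cell cannot be told apart.

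The axis that defines the model was examined first. Of 31 listed genes of GH and IGF signalling, 17 were tested, 10 higher and 7 lower in the dwarfs, and their median difference was 0.0036 against 0.0018 over all tested probes. Igf2 was the 1 member of 17 with an unadjusted p under 0.05, a limit reached by 6.6% of all tested probes. Igf1r, the receptor for IGF-1, read 6.81, 6.83, 6.98 and 6.98 in dw/dw saline rats, against 6.87, 6.96, 6.86 and 6.79 in HZ rats. The groups overlapped over most of their range, and the difference was 0.03 with a 95% interval of -0.093 to 0.153 (limma adjusted p = 0.98). The sign of that difference turned, to -0.011, without HZ replicates 1 and 4. Jak2, the kinase bound to the GH receptor, read 7.66, 7.60, 7.50 and 7.56 in dw/dw saline rats, against 7.36, 7.50, 7.56 and 7.47 in HZ rats. The lowest HZ value was well apart from the others and the ranges overlapped, with a difference of 0.11 (SE 0.057, limma adjusted p = 0.79), and the 30-day difference was 0.11 as well. Akt1, a kinase downstream of the IGF-1 receptor, read 7.64 to 7.69 in dw/dw saline rats and 7.45 to 7.63 in HZ rats. The ranges did not overlap, though the highest HZ array came close, and the difference was 0.11 (SE 0.068, limma adjusted p = 0.84).

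The direct target genes of STAT5 lay close to background. Socs2, a feedback inhibitor of GH receptor signalling, was detected on 7 of the 8 arrays and read 6.16, 6.13, 6.11 and 6.12 in dw/dw saline rats, against 6.12, 6.08, 6.12 and 6.11 in HZ rats. These ranges overlapped, and the 95% interval of the difference ran from -0.015 to 0.062. Cish, a related inhibitor, was detected on 1 of 8 arrays, at which level a difference was not detectable, and its difference read 0.004. Stat5b differed by 0.010 (SE 0.015) and Igf2r, which takes up IGF-2 and clears it, by 0.077 (SE 0.051). Ghr and Igf1, the genes of the GH receptor and of IGF-1 itself, were not analysed here.

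**Figure D1:**
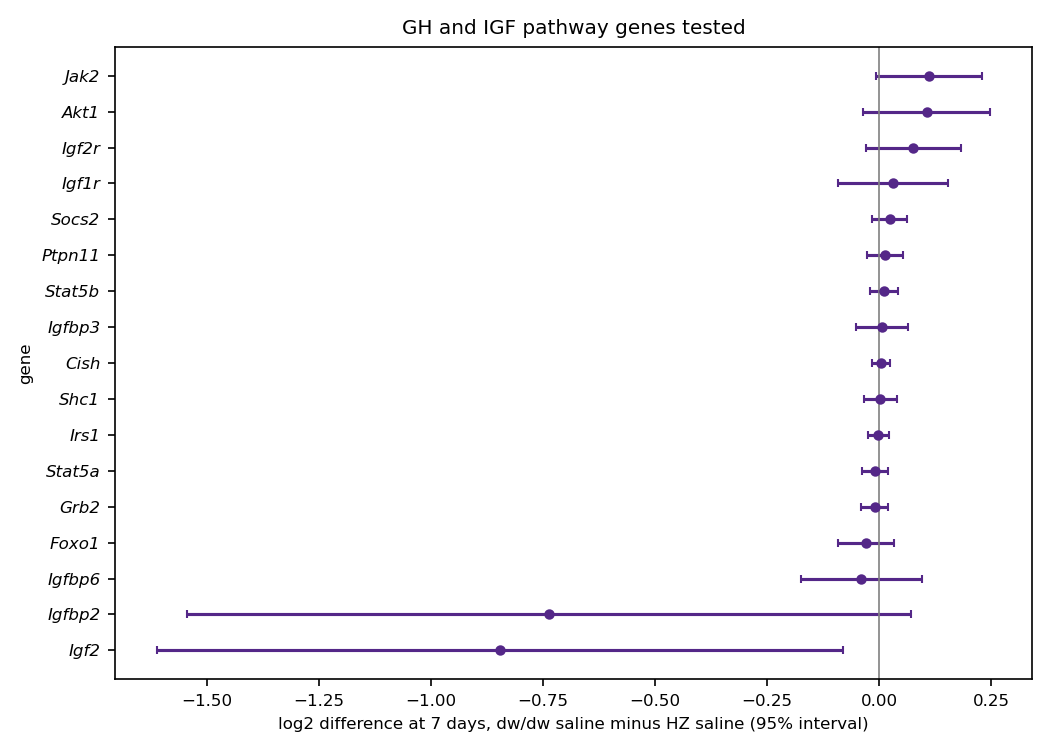
Log2 difference at 7 days, dw/dw saline minus HZ saline, for the 17 tested genes of the GH and IGF axis; points are limma differences and bars their 95% intervals. Intervals of 16 genes include 0, and that of Igf2, from -1.61 to -0.080, does not.

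Mx1, an interferon-induced GTPase of the dynamin family that blocks viruses, had the lowest p of all named genes. It read 7.10, 6.82, 6.86 and 7.54 in dw/dw saline rats, against 7.55, 7.83, 7.69 and 7.52 in HZ rats. Replicates 1 to 3 of the dw/dw saline rats lay below every HZ array and replicate 4 lay inside the HZ range, so the groups overlapped. The difference was -0.57 (SE 0.12, 0.672-fold, limma adjusted p = 0.43). Without dw/dw saline replicate 4 it was -0.73 and passed the threshold (limma adjusted p = 0.0018), and over all alternatives its adjusted p ran from 0.0018 to 0.95. The dw/dw rats given GH, set beside these, read 7.54, 7.60, 7.40 and 7.63. At 30 days Mx1 read 7.22, 7.22, 7.24 and 7.21 in dw/dw saline rats and 7.20, 7.41, 7.56 and 7.28 in HZ rats. The 30-day difference was -0.14 (limma adjusted p = 0.80, unadjusted 0.25), and the difference between the 7-day and 30-day values had an unadjusted p of 0.016 and an adjusted p of 0.995.

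Mx1 was the 1 interferon gene with an unadjusted limma p under 0.05, a limit reached by 6.6% of all tested probes. Of 43 listed interferon and MHC class I genes 18 were tested, 10 with higher and 8 with lower values, and the list median was 0.010, which turned to -0.070 with slide position as a covariate. Irf7, the transcription factor that amplifies the interferon response, differed by 0.017 (SE 0.058). B2m, the light chain of MHC class I, differed by -0.011 (SE 0.059), or 0.053 with median scaling, and the heavy chain gene RT1-A1 by 0.12 (SE 0.079). Mx2, a close relative of Mx1, differed by 0.024, and Ifnar1, a chain of the type I interferon receptor, by 0.020 (SE 0.010). None of these had an unadjusted limma p under 0.05, and the signs of Irf7, RT1-A1 and Mx2 turned with slide position as a covariate.

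The promoters of Mx1 and Irf7 are shown because they carry different amounts of a motif bound by interferon regulatory factors, GAAA, any 2 bases and GAAA again, searched on both strands of 300-base windows around the annotated gene start. The motif was in 1034 of 27457 RefSeq promoters of rat assembly GRCr8 (3.77%). Of the 18 tested interferon and MHC genes 17 had a promoter in that table, and 12 of them held the motif. The Mx1 window, on the minus strand at chr11:50294557-50294856, held none, and the Irf7 window, on the minus strand at chr1:205799974-205800273, held 1, in capitals, read on the opposite strand and beginning at base -69 from the annotated start.
Mx1: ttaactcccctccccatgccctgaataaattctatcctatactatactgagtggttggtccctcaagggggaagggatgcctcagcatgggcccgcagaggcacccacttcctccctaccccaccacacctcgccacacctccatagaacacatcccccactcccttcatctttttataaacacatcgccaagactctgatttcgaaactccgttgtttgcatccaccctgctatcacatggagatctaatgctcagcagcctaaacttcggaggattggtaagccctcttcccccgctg
Irf7: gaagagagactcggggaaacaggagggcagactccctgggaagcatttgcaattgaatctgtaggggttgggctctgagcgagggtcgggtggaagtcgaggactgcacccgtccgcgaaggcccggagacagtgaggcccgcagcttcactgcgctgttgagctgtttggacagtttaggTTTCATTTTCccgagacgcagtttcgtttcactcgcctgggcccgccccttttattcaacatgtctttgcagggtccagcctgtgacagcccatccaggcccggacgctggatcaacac
These letters say nothing of binding in the rats, and the absence of the motif from the Mx1 window covers that window alone.

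The 12 named genes with the smallest p on each side are described next by role. They were chosen by the 7-day contrast itself, so their 7-day values are a description. Values of dw/dw rats given GH are shown for some of these genes only, Mx1 among them. A choice by extreme dw/dw saline values favours genes whose GH values lie toward HZ, so no effect of GH is read from them. Of these 24 genes 22 were detected on all 8 arrays, and the groups did not overlap for 11 of the 12 higher and 9 of the 12 lower genes. Over all tested probes the groups did not overlap for 1.58% on the higher and 1.23% on the lower side, and a choice by smallest p favours such genes. The fold of the higher genes ran from 1.03 to 1.22 and that of the lower genes from 0.672 to 0.974.

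Among the higher genes, Actb, Cotl1 and Sirpa belong to the actin skeleton and the cell surface. Actb, cytoplasmic beta actin, read 12.61, 12.64, 12.65 and 12.62 in dw/dw saline rats, against 12.53, 12.45, 12.53 and 12.46 in HZ rats. The groups stood apart with a difference of 0.14 (SE 0.034, limma adjusted p = 0.47). Cotl1, a coactosin-like protein that binds filamentous actin, read 9.59, 9.49, 9.78 and 9.59 in dw/dw saline rats, against 9.30, 9.43, 9.39 and 9.20 in HZ rats. It had the largest difference of the 12 higher genes, 0.28 (SE 0.075), with no overlap. Sirpa, a membrane receptor for CD47 found on neurons and myeloid cells, read 11.71 to 11.83 in dw/dw saline rats and 11.57 to 11.69 in HZ rats, a difference of 0.14 (SE 0.036).

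A further group of higher genes encodes signalling proteins. Gnaq, the G protein alpha subunit that activates phospholipase C, read 6.47 to 6.60 in dw/dw saline rats and 6.25 to 6.46 in HZ rats, a difference of 0.14 (SE 0.034). Csnk1d, casein kinase 1 delta, which phosphorylates the PER proteins of the circadian clock, read 6.84 to 6.94 in dw/dw saline rats and 6.70 to 6.80 in HZ rats, a difference of 0.13 (SE 0.032). Both stood apart from the HZ range by a margin smaller than the spread within the groups. Cdkl1, a cyclin-dependent kinase-like protein, read 8.55, 8.61, 8.52 and 8.50 in dw/dw saline rats, against 8.32, 8.35, 8.38 and 8.40 in HZ rats, and the dw/dw rats given GH read 8.36, 8.45, 8.34 and 8.46. Its difference of 0.19 (SE 0.046) came with a gap between the saline groups. Rerg, a small GTPase of the RAS superfamily that restrains growth, read 7.12 to 7.24 in dw/dw saline rats and 6.81 to 7.07 in HZ rats, a difference of 0.23 (SE 0.057).

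Pnma8b, a member of the paraneoplastic Ma antigen family, had the lowest p of the higher genes. It read 6.65, 6.74, 6.66 and 6.73 in dw/dw saline rats, against 6.47, 6.48, 6.52 and 6.45 in HZ rats, and 6.58, 6.63, 6.61 and 6.54 in dw/dw rats given GH. The saline groups stood clear of each other, with a difference of 0.22 (SE 0.045, limma adjusted p = 0.43). Of the 7 tested members of this family 5 had higher and 2 lower values, with a median of 0.027. Pnma8b alone had an unadjusted limma p under 0.05, a limit reached by 6.6% of all tested probes. Arel1, a ubiquitin ligase known in human cells to limit apoptosis, differed by 0.11 (SE 0.024), and Rilpl1, an effector of RAB proteins, by 0.18 (SE 0.042), both without overlap. Taf15, an RNA-binding protein of the FET family, read 8.62, 8.88, 9.05 and 9.01 in dw/dw saline rats, against 8.64, 8.69, 8.60 and 8.57 in HZ rats. Its replicate 1 lay inside the HZ range, and the difference was 0.26 (SE 0.070). Dck, a kinase that salvages deoxynucleosides, was detected on 5 of 8 arrays and differed by 0.044.

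**Figure D2:**
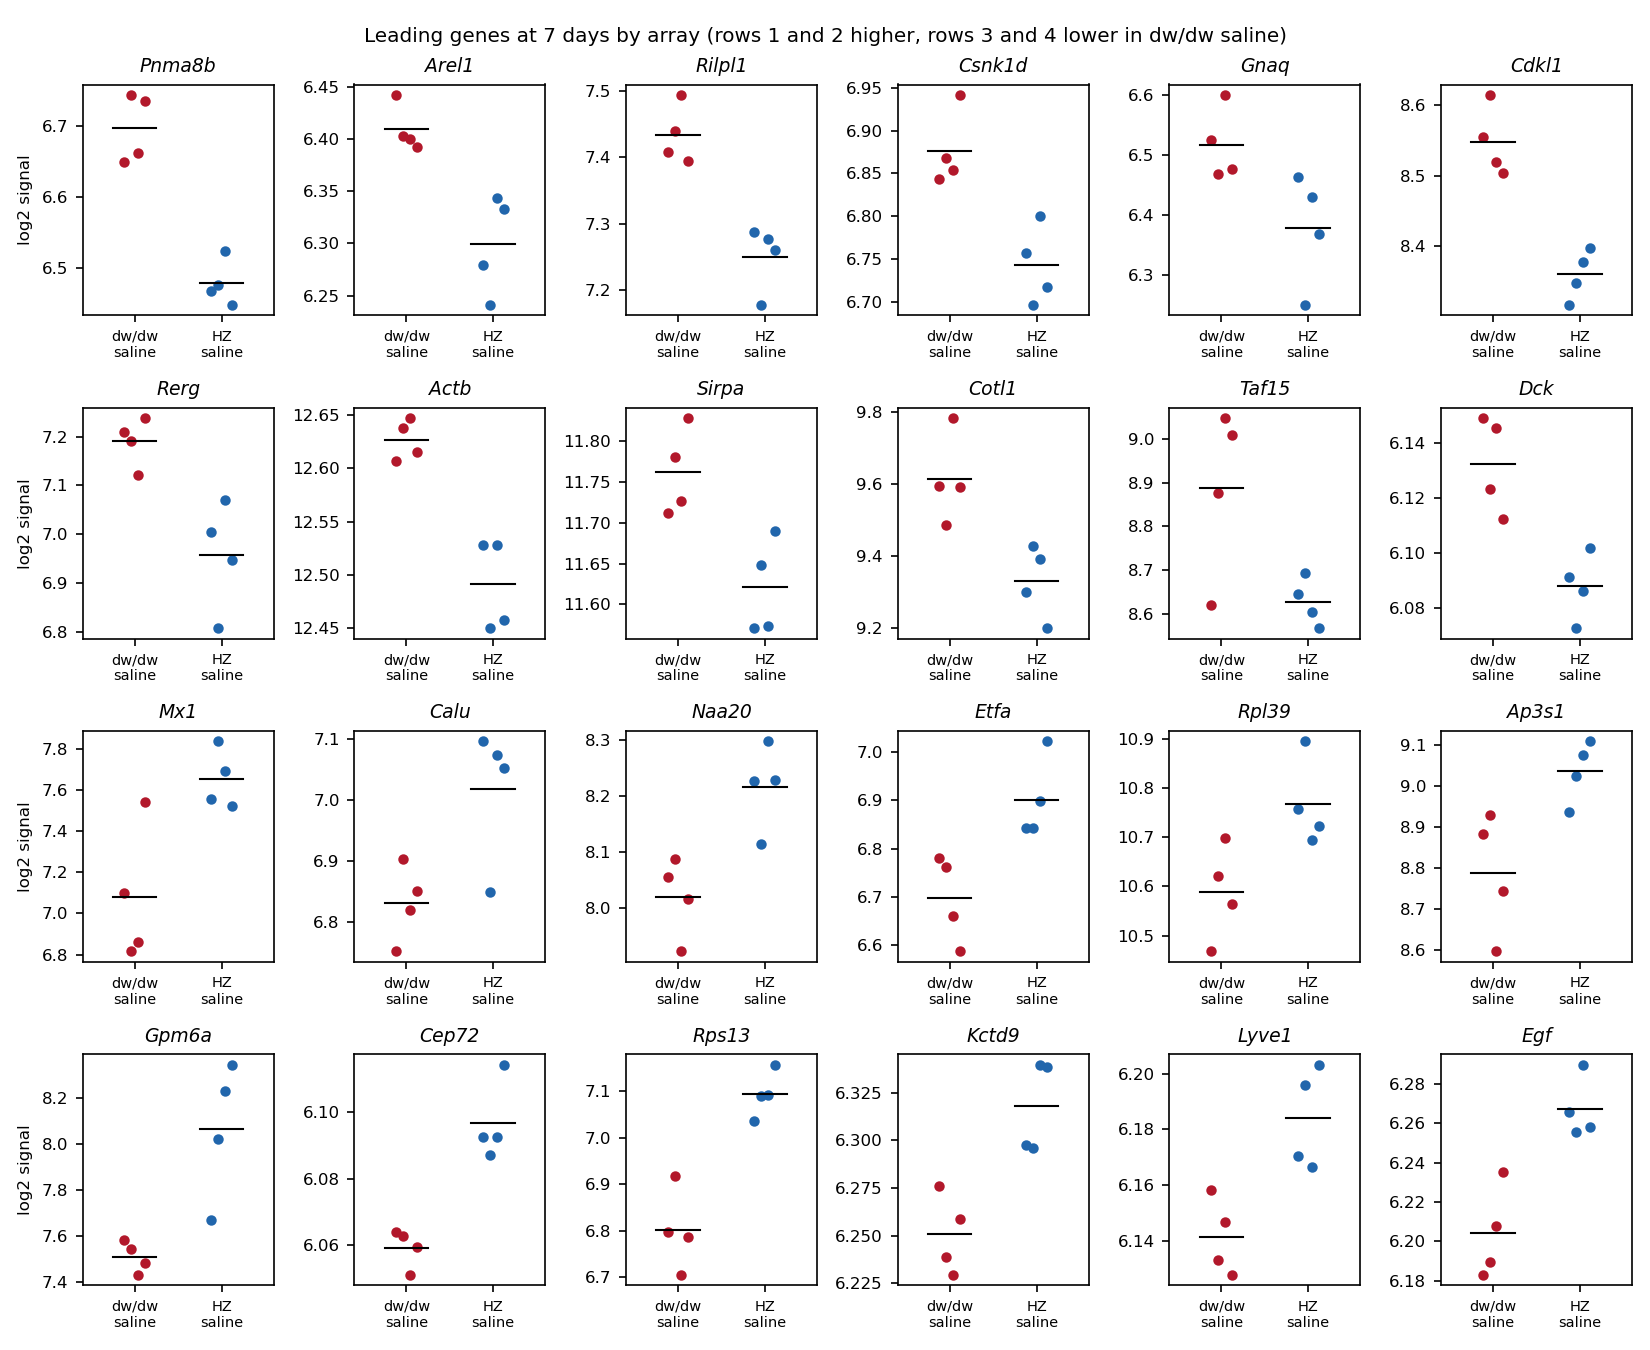
Log2 signal of the 24 leading named genes on each 7-day array, dw/dw saline (red) left and HZ saline (blue) right in every panel; points are arrays and lines group means, and each panel has its own vertical scale. A gap between the groups is visible for 20 of these genes, which were chosen by their 7-day p, while Taf15, Mx1, Calu and Rpl39 overlap. Over all tested probes the groups did not overlap for 2.81%.

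Of the 12 lower genes, the one with the largest difference after Mx1 was Gpm6a, a neuronal membrane glycoprotein that promotes filopodia and neurite outgrowth. It read 7.58, 7.54, 7.43 and 7.48 in dw/dw saline rats, against 7.67, 8.02, 8.23 and 8.35 in HZ rats. The dw/dw saline values were tightly grouped below an HZ group that spread widely, and the difference was -0.56 (SE 0.16, 0.679-fold, limma adjusted p = 0.50). Among dw/dw rats given GH the values were 7.50, 8.06, 7.90 and 8.10. Ap3s1, the sigma subunit of the AP-3 adaptor that sorts cargo to lysosome-related vesicles, read 8.88, 8.93, 8.60 and 8.74 in dw/dw saline rats, against 8.94, 9.02, 9.08 and 9.11 in HZ rats. The groups came close without overlapping, and the difference was -0.25 (SE 0.070, limma adjusted p = 0.48).

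Translation and protein modification were represented by Rps13, Rpl39, Naa20 and Calu. Rps13, a protein of the small ribosomal subunit, read 6.80, 6.92, 6.71 and 6.79 in dw/dw saline rats, against 7.04, 7.09, 7.09 and 7.16 in HZ rats. All dw/dw saline values lay below all HZ values, with a difference of -0.29 (SE 0.086, limma adjusted p = 0.50), and dw/dw rats given GH read 6.82, 6.97, 6.91 and 6.86. Rpl39, of the large subunit, read 10.47 to 10.70 in dw/dw saline rats and 10.69 to 10.89 in HZ rats, a difference of -0.18 (SE 0.049) with a slight overlap. Ribosomal protein genes have many processed copies in rodent genomes, and a probe can take signal from more than 1 of them. Naa20, the catalytic subunit of the NatB N-terminal acetyltransferase, differed by -0.20 (SE 0.053) without overlap. Calu, a calcium-binding protein of the secretory pathway, read 6.75, 6.90, 6.82 and 6.85 in dw/dw saline rats, against 7.10, 6.85, 7.07 and 7.05 in HZ rats. HZ replicate 2 lay inside the dw/dw saline range, and the difference of -0.19 (SE 0.045, limma adjusted p = 0.47) became -0.24 and passed without it (limma adjusted p = 0.024, with 0.024 to 0.95 over all alternatives).

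Etfa, the alpha subunit of the electron transfer flavoprotein that passes electrons from fatty acid oxidation to the respiratory chain, read 6.78, 6.76, 6.66 and 6.59 in dw/dw saline rats, against 6.84, 6.84, 6.90 and 7.02 in HZ rats. The groups did not overlap, and the difference was -0.20 (SE 0.056, limma adjusted p = 0.47). The other 4 lower genes were dim. Kctd9, a BTB-domain protein that works with cullin ubiquitin ligases, read 6.23 to 6.28 in dw/dw saline rats and 6.30 to 6.34 in HZ rats. Lyve1, a hyaluronan receptor of lymphatic endothelium and of macrophages at the brain's borders, differed by -0.042 (SE 0.013), Egf, epidermal growth factor, by -0.063 (SE 0.019), and the centrosomal Cep72, detected on 1 of 8 arrays, by -0.037 (SE 0.011). At signals this close to background, log2 differences are compressed by the offset used in background correction.

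The same genotype contrast at 30 days used other animals on another slide, with the groups at the same positions, so age and slide cannot be told apart there and the fits share 1 estimate of the spread. Of the 24 leading genes 20 had the same sign at 30 days, 10 of the 12 higher and 10 of the 12 lower ones. The background share was 55.8% of all tested probes, and 68.6% of the 758 probes with an unadjusted p under 0.05 at 7 days. For 7 of the 24 the 30-day difference had the same sign and an unadjusted p under 0.05, against 5.09% of all tested probes. These 7 were Pnma8b, Cdkl1 and Taf15 on the higher side and Etfa, Gpm6a, Rps13 and Kctd9 on the lower side. For 3 of the 24, Taf15, Etfa and Kctd9, the groups did not overlap at 30 days in the direction of the 7-day difference, against 2.77% of all tested probes. Over all tested probes 4.34% did not overlap in either direction. Taf15 had overlapped at 7 days, and Etfa and Kctd9 had not. No probe passed the adjusted threshold at 30 days (0%), where 820 (7.14%) had an unadjusted p under 0.05, and the lowest limma adjusted p was 0.19.

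Rps13 had nearly the same difference at both ages, -0.29 at 7 days and -0.30 at 30 days (limma adjusted p at 30 days = 0.60, unadjusted 0.0026). Its 30-day levels were 7.35, 6.87, 6.90 and 6.82 in dw/dw saline rats, against 7.20, 7.23, 7.43 and 7.26 in HZ rats. Replicates 2 to 4 of the dw/dw saline rats lay below the HZ range and replicate 1 inside it. Kctd9 differed by -0.067 at 7 days and by -0.066 at 30 days. Gpm6a read 8.71, 8.12, 8.10 and 8.07 at 30 days in dw/dw saline rats, against 8.52, 8.37, 8.81 and 8.66 in HZ rats, a difference of -0.34 (limma adjusted p = 0.68, unadjusted 0.046). Replicate 1 again lay inside the HZ range while the other 3 lay below it.

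On the higher side, Pnma8b read 6.50, 6.72, 6.67 and 6.71 in dw/dw saline rats at 30 days, against 6.48, 6.51, 6.58 and 6.60 in HZ rats. The difference was 0.11 (limma adjusted p = 0.67, unadjusted 0.031), with replicate 1 of the dw/dw saline rats inside the HZ range once more. Across the 24 genes that array lay inside the HZ range for 14 genes, and replicates 2, 3 and 4 for 11, 13 and 9. Leaving out replicate 1 was an alternative added after these values were seen, so larger differences for these genes follow from the choice. Without it the 30-day differences were -0.41 for Rps13 (limma adjusted p = 0.017), -0.50 for Gpm6a and 0.15 for Pnma8b. In that fit 5 probes passed at 30 days, and 22 of the 24 genes had the sign of the 7-day difference, against 55.8% of all tested probes. Of the 24 genes 7 had that sign and an unadjusted limma p under 0.05, against 8.11% of all tested probes. Cdkl1 differed by 0.14 at 30 days, Taf15 by 0.17 and Etfa by -0.15, with unadjusted limma p-values of 0.0052, 0.028 and 0.013.

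Some other leading genes had little or no difference at 30 days, and the sign of Lyve1 was reversed. Arel1 differed by -0.0019 and Rilpl1 by -0.014 at 30 days, and the tests of the change between ages had unadjusted limma p-values of 0.0036 and 0.0038. Cotl1 differed by 0.0052 at 30 days, against 0.28 at 7 days, with an unadjusted p of 0.016 for the change. Lyve1, a dim gene, read 6.13, 6.16, 6.12 and 6.12 in dw/dw saline rats at 30 days, against 6.11, 6.10, 6.09 and 6.10 in HZ rats. These groups did not overlap, as for 4.34% of all tested probes at 30 days. The difference was 0.033 (limma adjusted p = 0.63, unadjusted 0.019), opposite in sign to the -0.042 at 7 days. Its test of the change between ages had the smallest limma p among the 24 genes, 0.0005 unadjusted and 0.995 adjusted. Over all tested probes the interaction of genotype and age passed the adjusted threshold for 0 and had an unadjusted limma p under 0.05 for 459 (4%), including 10 of the 24 leading genes. The leading genes were picked for large 7-day differences, so nothing is read from that count.

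**Figure D3:**
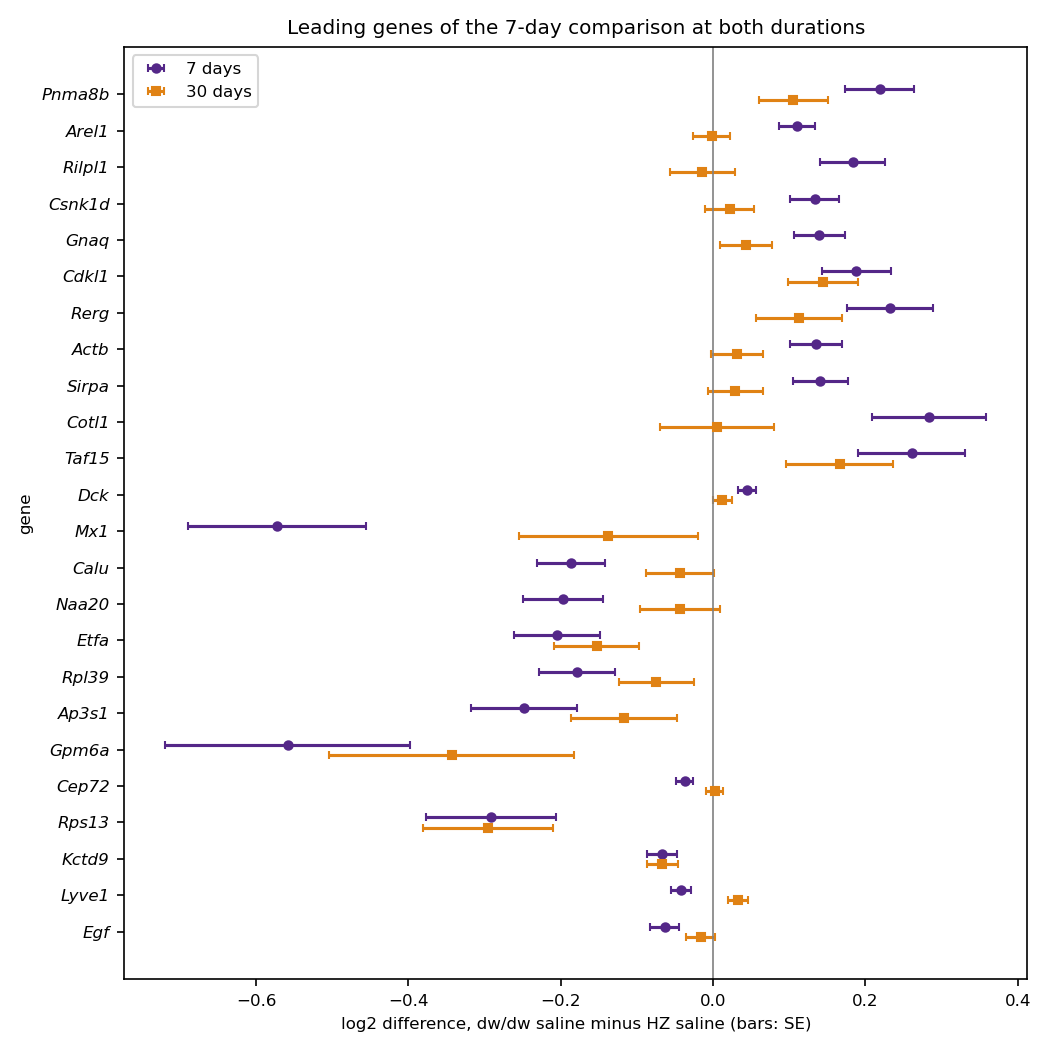
Log2 difference, dw/dw saline minus HZ saline, of the 24 leading genes at 7 days (purple circles) and at 30 days (orange squares), with bars for the SE of the limma fit. Rps13 and Kctd9 nearly coincide at both ages, and Mx1 is at -0.57 at 7 days and -0.14 at 30 days.

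Neuronal gene lists were read next. Of 11 tested markers of hippocampal excitatory neurons, 10 were higher in the dwarfs and 1, the calcium-binding protein gene Calb1, was lower. The list median was 0.040 against 0.0018 over all tested probes, of which 52.4% were higher. It was 0.014 with slide position as a covariate and 0.14 with median scaling, where Calb1 turned to 0.0073. An unadjusted p under 0.05 was reached by 2 of the 11 markers, both higher, against 3.73% of all tested probes. Camk2a, the alpha chain of the kinase CaMKII needed for synaptic potentiation, read 7.54, 7.55, 7.61 and 7.32 in dw/dw saline rats, against 7.42, 7.25, 7.40 and 7.16 in HZ rats. The ranges overlapped, with a difference of 0.20 (SE 0.072, limma adjusted p = 0.64), which was -0.0024 with slide position as a covariate. Neurod1, a transcription factor of neuronal differentiation, differed by 0.14 (SE 0.063) at 7 days. At 30 days its sign was reversed, -0.18 (limma adjusted p = 0.63, unadjusted 0.0093), and the groups did not overlap. Of the 11 markers 7 were higher and 4 lower at 30 days, with a median of 0.057. Wfs1, a marker of CA1 pyramidal neurons, differed by 0.22 (SE 0.11) and Neurod2 by 0.11 (SE 0.064), neither past the unadjusted limit.

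Among ionotropic glutamate receptor and postsynaptic genes, 12 of 17 had higher and 5 lower values, with a median of 0.014, which turned to -0.0083 without HZ replicates 1 and 4 and was 0.040 at 30 days. Grin2b, an NMDA receptor subunit, differed by 0.22 (SE 0.11), Camk2b, the beta chain of CaMKII, by 0.12 (SE 0.073) and the scaffold gene Shank1 by -0.070 (SE 0.031). The signs of Camk2b and Shank1 turned with slide position as a covariate. Gabbr1, a subunit of the metabotropic GABA-B receptor, read 8.81, 8.90, 9.04 and 8.99 in dw/dw saline rats, against 8.75, 8.60, 8.88 and 8.60 in HZ rats. The groups overlapped, and the difference was 0.23 (SE 0.073, limma adjusted p = 0.57) at 7 days and 0.19 at 30 days (limma adjusted p = 0.63, unadjusted 0.016). Gabra5, the GABA-A receptor subunit concentrated in hippocampus, read 9.66, 9.42, 9.16 and 9.35 in dw/dw saline rats, against 9.33, 9.54, 9.77 and 9.82 in HZ rats, a difference of -0.22 (SE 0.13) with overlap and -0.35 at 30 days (limma adjusted p = 0.63, unadjusted 0.012).

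Signalling and activity genes gave mixed signs. Of 18 tested G protein subunits 11 had higher and 7 lower values, with a median of 0.0033. Gnaq and Gnb5 were the members with an unadjusted limma p under 0.05, both higher, where 3.73% of all tested probes were. Gnb5, which pairs with RGS proteins, differed by 0.18 (SE 0.082), and by 0.18 at 30 days. Of 19 tested casein kinase and clock genes 13 had higher and 6 lower values, with a median of 0.0082. Of 15 tested immediate early genes, which neurons switch on with activity, 6 had higher and 9 lower values. Nptx2, a secreted pentraxin that clusters AMPA receptors, differed by 0.17 (SE 0.065), and the transcription factors Egr4 by -0.049 (SE 0.019) and Egr2 by -0.15 (SE 0.075).

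Mitochondrial fatty acid oxidation genes, the list that holds Etfa, had 7 higher and 16 lower values among 23 tested and a median of -0.041, which turned to 0.031 when arrays were only scaled to a common median. The list read 6 higher and 17 lower at 30 days, with a median of -0.049. Cpt2, which completes the import of long-chain acyl groups, differed by -0.11 (SE 0.046) at 7 days, by 0.0049 with median scaling, and by 0.097 at 30 days. Eci1, an enoyl-CoA isomerase, read 8.34 to 8.54 in dw/dw saline rats and 8.31 to 8.78 in HZ rats, a difference of -0.17 (SE 0.076), and the hydratase Echs1 differed by -0.13 (SE 0.070), or -0.060 without HZ replicate 2. Etfa, Cpt2 and Eci1 were the 3 members with an unadjusted p under 0.05, all lower, where 2.86% of all probes were. Respiratory chain genes were split, with 21 higher and 23 lower of 44 tested and a median of -0.0097, and of these Ndufa2 of complex I differed by -0.14 (SE 0.053) and Atp5f1b of the ATP synthase by 0.11 (SE 0.052), signs that both turned with slide position as a covariate.

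The lists around the other leading genes gave no common direction. Of 57 tested ribosomal protein genes 25 had higher and 32 lower values at 7 days, with a median of -0.0061, and 39 had higher and 18 lower values at 30 days. Rps12 differed by -0.17 (SE 0.080), or 0.048 with slide position as a covariate, and Rps3 by 0.14 (SE 0.059). Chaperones and calcium-binding proteins of the endoplasmic reticulum, the list that holds Calu, had 11 higher and 15 lower values of 26, and Rcn2, a reticulocalbin related to Calu, differed by -0.15 (SE 0.073).

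Genes of the meninges and of fibroblasts, tissue that covers the brain, made up the longest of the lists whose tested members all had 1 sign. All 19 were lower in the dwarfs. Their median was -0.17 and their range -0.74 to -0.00061, and 6 had an unadjusted p under 0.05, where 2.86% of all tested probes were lower at that limit. None passed the adjusted threshold, the lowest limma adjusted p being 0.57, and the groups overlapped for all 19, as they did for all but 2.81% of the tested probes. Dcn, the collagen-binding proteoglycan decorin, read 8.24, 8.64, 8.39 and 8.56 in dw/dw saline rats, against 9.05, 8.98, 8.60 and 9.05 in HZ rats. Fn1, fibronectin, read 6.50, 6.55, 6.66 and 6.75 in dw/dw saline rats, against 7.59, 6.87, 6.66 and 7.08 in HZ rats. HZ replicate 3 lay within the dw/dw saline range for both genes, and the differences were -0.46 (SE 0.18) and -0.43 (SE 0.16). Gjb2, a gap junction protein, read 6.84 to 6.94 in dw/dw saline rats, against 7.84, 6.96, 6.84 and 7.83 in HZ rats, so that HZ replicates 1 and 4 carried its difference of -0.49 (SE 0.19).

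As a score for the list, each member's log2 level was centred on its mean over the 8 arrays and the members were averaged. The score was -0.18, -0.16, -0.14 and -0.029 on the dw/dw saline arrays, against 0.47, -0.071, -0.20 and 0.31 on the HZ arrays. HZ replicates 1 and 4 lay above all others, and HZ replicates 2 and 3 lay at the level of the dwarfs. Without those 2 HZ arrays, an alternative added after the values were seen, 6 of 19 members had lower values and the median was 0.016. Without HZ replicate 1 alone 14 members were lower with a median of -0.069, and without HZ replicate 4 alone 18 were lower with a median of -0.13. At 30 days 17 of the 19 members were higher in the dwarfs, and the list median was 0.068.

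Choroid plexus genes varied over the same HZ arrays. Igf2, a growth factor that in adult brain is made chiefly by meninges and choroid plexus, read 10.07, 10.17, 10.50 and 10.61 in dw/dw saline rats, against 12.10, 10.48, 10.38 and 11.78 in HZ rats. HZ replicates 1 and 4 were high and HZ replicates 2 and 3 lay inside the dw/dw saline range. The difference was -0.85 (SE 0.37, limma adjusted p = 0.71), it was -0.094 without the 2 high HZ arrays, and it was 0.23 at 30 days. Igfbp2, an IGF binding protein of the same tissues, differed by -0.74 (SE 0.39), and by 0.11 without the 2 arrays. Ttr, transthyretin, the abundant product of choroid plexus epithelium, read 7.73, 8.59, 6.54 and 7.80 in dw/dw saline rats, against 9.25, 7.63, 7.03 and 10.64 in HZ rats. Its difference was -0.97 (SE 0.66), or 0.34 without the 2 arrays, and the 6 tested choroid plexus genes had a median of -0.13 with 5 lower, or 0.0071 without the 2 arrays. Of these 6 genes 2 were detected on all 24 arrays. At 30 days 5 of the 6 were higher and 1 lower, with a median of 0.032.

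Of the red blood cell genes 5 were tested and all 5 were lower in the dwarfs, with 3 of them detected on all 24 arrays. The difference nearest to 0 was -0.0028, and Ahsp, detected on 2 of 8 arrays, differed by -0.027. The list median at 7 days was -0.26, or -0.13 without HZ replicates 1 and 4, -0.12 without HZ replicate 1 alone and -0.34 without HZ replicate 4 alone. At 30 days 2 members were higher and 3 lower, with a median of -0.046. The score of this list on the HZ arrays was 0.37, 0.16, -0.14 and -0.00058, so HZ replicate 4 was not high as it was for meninges and choroid plexus. The alpha globin gene Hba-a1 read 12.01, 11.94, 12.12 and 12.27 in dw/dw saline rats, against 12.93, 12.39, 12.04 and 12.37 in HZ rats, a difference of -0.35 (SE 0.19). The beta globin genes Hbb-b1 and Hbb differed by -0.32 (SE 0.19) and -0.26 (SE 0.20). HZ replicate 1 was the highest array for all 3. Among the HZ arrays Mx1 was highest in replicate 2, whose meninges score was -0.071. Among the dw/dw saline arrays Mx1 was highest in replicate 4, at 7.54, and the meninges score of that array, -0.029, was also the highest of its group. The part of neighbouring tissue in the values of the leading genes was not tested.

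**Figure D4:**
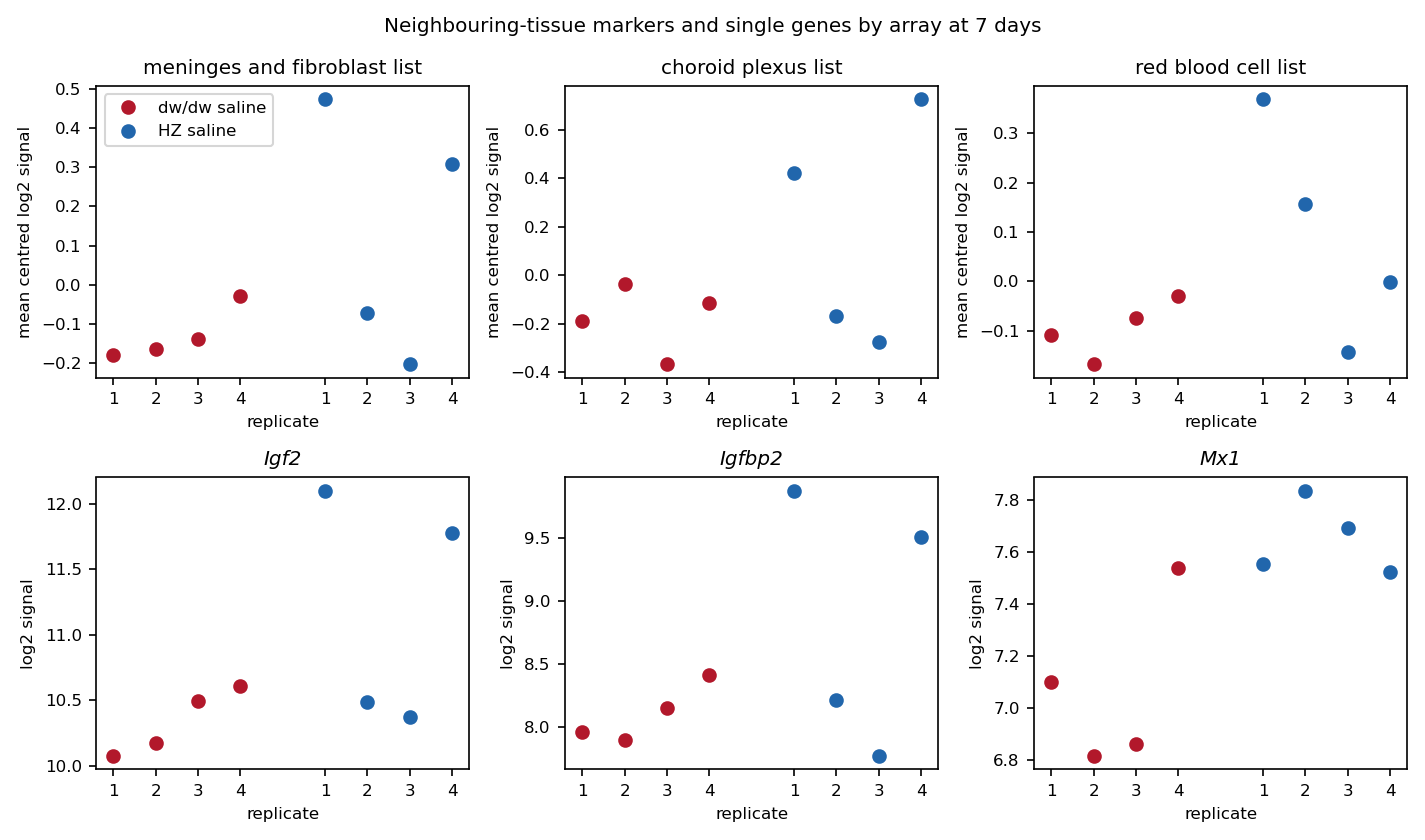
Values on each 7-day array, dw/dw saline (red) left and HZ saline (blue) right, numbered by replicate: upper row, the mean centred log2 signal of the meninges and fibroblast, choroid plexus and red blood cell lists; lower row, the log2 signal of Igf2, Igfbp2 and Mx1. HZ replicates 1 and 4 stand above the other arrays for meninges, choroid plexus, Igf2 and Igfbp2, and not for Mx1.

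Markers of glia, vessels and neighbouring brain regions differed little. Of 12 tested interneuron markers 4 had higher and 8 lower values, with a median of -0.033 that turned to 0.051 with median scaling, and Lhx6, a transcription factor of interneurons, differed by -0.066 (SE 0.029), or 0.018 with slide position as a covariate. The median was -0.016 over 6 astrocyte, -0.012 over 12 oligodendrocyte and 0.010 over 10 microglial markers, and the first 2 of these turned positive with median scaling. All 4 tested endothelial markers had lower values, with a median of -0.066, and Vwf, von Willebrand factor, was highest in HZ replicate 1 and differed by -0.19 (SE 0.11), or -0.013 without HZ replicates 1 and 4. Of 16 genes of neurogenesis and the cell cycle 6 had higher and 10 lower values, with 0 past the unadjusted limit, which 6.6% of all tested probes passed. Vim, an intermediate filament of precursors and fibroblasts, differed by -0.41 (SE 0.24), or 0.076 without HZ replicates 1 and 4. Thalamic markers gave a median of -0.041 over 4 genes, which turned to 0.046 with slide position as a covariate, and striatal markers 0.036 over 9, which turned to -0.016 without dw/dw saline replicate 2. Medians of 15 of the 33 lists changed sign when arrays were only scaled to a common median, a step that moved the median over all probes to 0.031. Without HZ replicates 1 and 4 the sign changed for 10 lists, with array weights for 9, without dw/dw saline replicate 3 for 9 and with slide position for 8.

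**Figure D5:**
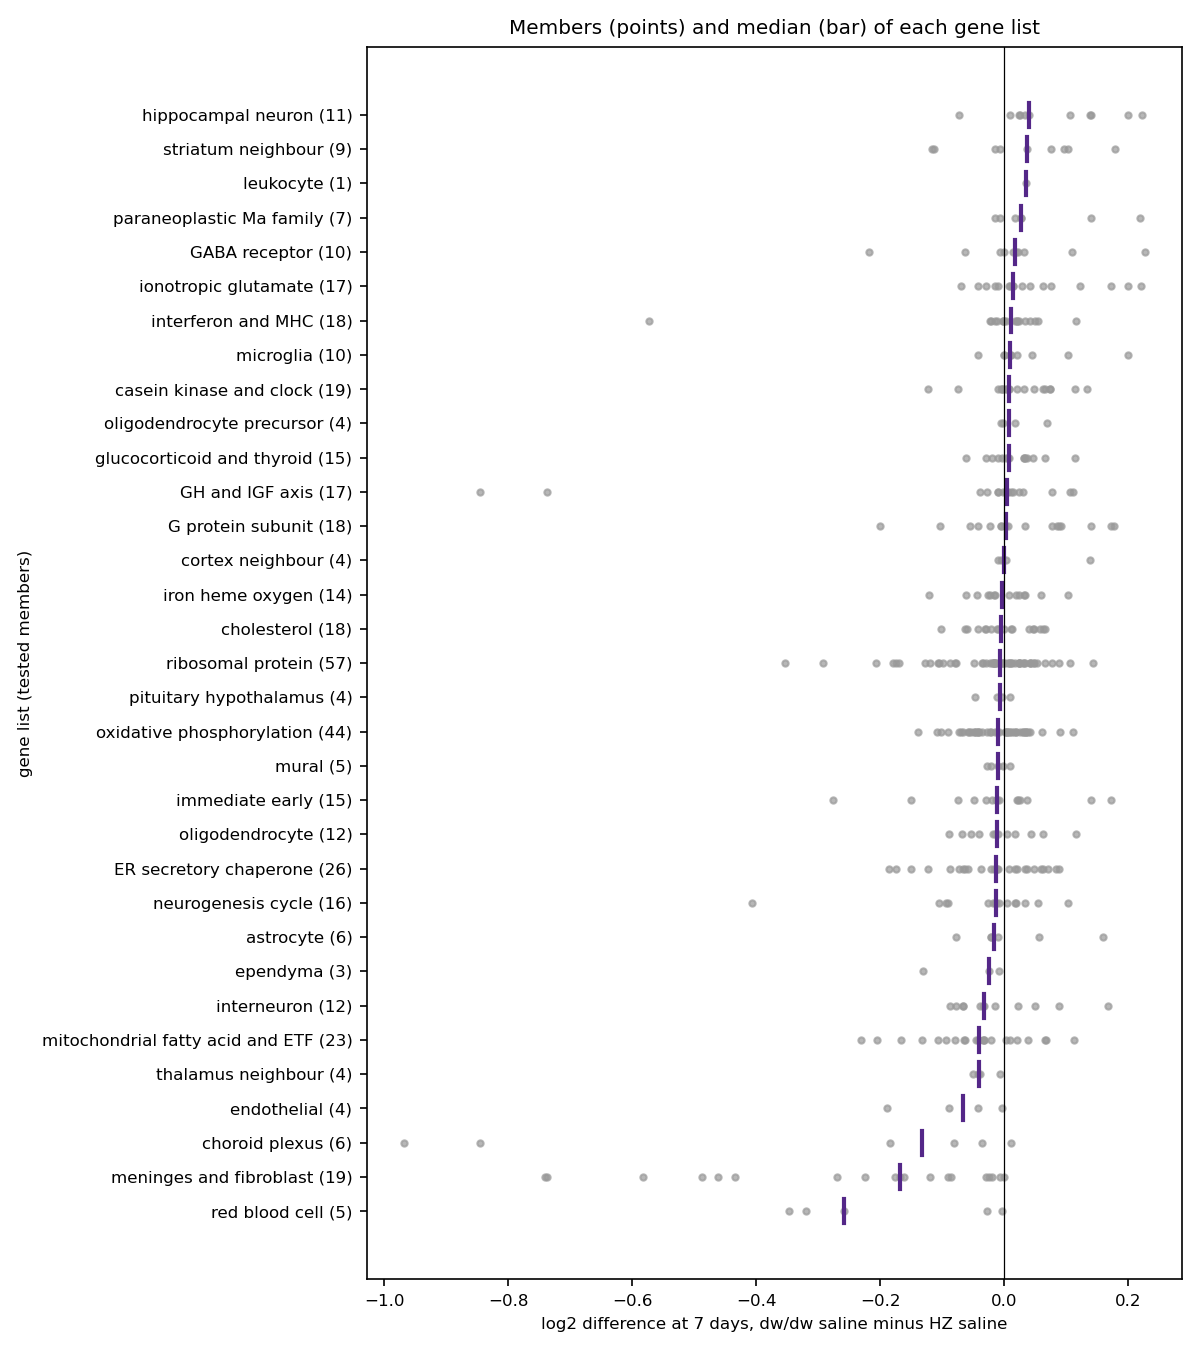
Log2 difference at 7 days, dw/dw saline minus HZ saline, of the tested members (grey points) of 33 gene lists and each list's median (purple bar), with the number tested in parentheses. Medians lie between -0.066 and 0.040 for all lists but red blood cell (-0.26), meninges and fibroblast (-0.17) and choroid plexus (-0.13).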

How the data were processed

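The authors deposited, per the file headers, a scanner table of 22226 probes with a linear intensity (average bead signal) and a detection p-value per array. They also deposited processed intensity values, used as an alternative on a log2 scale, and no source used here states how these were normalized. The submitters' processing notes name GenomeStudio 2010.2. The deposited signals were background-corrected with normexp from the detection p-values (offset 16), quantile normalized over 24 arrays and put on a log2 scale with neqc (limma 3.58.1, R 4.3.3, jsonlite 2.0.0). A probe was tested when detected at p under 0.05 on at least 4 arrays, which kept 11487 (51.7%). Of all probes 13192 carried 1 gene symbol, 0 several and 9034 none, and 13151 matched the RefSeq table of GRCr8 by gene ID. The tested probes covered 7983 genes, and the brightest probe stood for each of the 67 genes with several.

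Samples were grouped by their source labels. The 6 group means were fitted with lmFit and eBayes (18 residual and 1.55 prior degrees of freedom), and two-sided p-values received Benjamini-Hochberg adjustment over all tested probes. Arrays give no read depth, and their number limits the precision. The p-values measure the spread between the animals of these groups. The genes named are the 12 with the smallest p on each side, up to 4 per list, and all tested genes of the GH and IGF axis and hippocampal neuron lists, and Irf7, B2m and Mx2, which were added after their values were seen. Comparison, lists and rule were chosen with earlier results of these data known. Same-numbered replicates did not deviate together (correlations of -0.28, 0.032, -0.17 and -0.13), so the numbers were not used as pairs. The steps were run on simulated data with added absolute differences of 0.5 or more, a size that 0.104% of tested probes exceeded at 7 days. How well smaller differences would be found was not tested. Alternatives covered scaling, offset, filter, sample set, array weights, prior, position, share of probes detected, the replicate block and each replicate left out.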

Additional observations from a re-analysis of the deposited data

Results flagged for a closer look

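Of 156 groups of 4 values examined, 2 had 1 array set apart by more than Dixon's 95% critical value, where chance sets apart about 1 in 20 groups. Dcn read 8.60 in HZ replicate 3, against 8.98 to 9.05 in the other 3 HZ rats. Sostdc1, a secreted antagonist of BMP and Wnt signalling from the choroid plexus list, read 6.72 in HZ replicate 4, against 6.07 to 6.18 in the other 3 HZ rats, and its difference between dw/dw saline and HZ rats was -0.18 (SE 0.097).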

How the results depend on the processing

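Over 23 alternatives the 78 genes tried kept their sign and side of the threshold in 1756 values, turned sign in 29 and passed in 2. The number of probes past the threshold was 1 with the replicate block, an unnamed probe, and 0 to 1 when single replicates were left out, the called genes being Mx1 (-0.73) and Calu (-0.24). The sample titles link same-numbered samples by that number alone, and whether they share anything else is not stated. At 30 days replicate 1 had the highest share of probes detected in each group. That share was 49.2% for dw/dw saline, 51.2% for dw/dw GH and 50% for HZ. The block changed no call among the named genes. The count with an unadjusted limma p under 0.05 was 1235 without the detection filter, 1265 with the share of probes detected as a covariate, and 594 to 919 with single replicates left out. That of the interaction with age was 287 with median scaling, 1018 without the filter and 370 to 682 with single replicates left out, and none passed. Leading genes with the same sign at 30 days numbered 20 to 22. Meninges and fibroblast genes with lower values numbered 14 to 19 with single replicates left out and 6 without HZ replicates 1 and 4, an alternative chosen after seeing the data, as was leaving out dw/dw saline replicate 1 at 30 days. Without those HZ arrays Igfbp2 turned to 0.11, Ttr to 0.34, Vim to 0.076, Igf1r to -0.011 and Cish to -0.0024. With position as a covariate Camk2a turned to -0.0024, Camk2b to -0.080, Shank1 to 0.029, Ndufa2 to 0.015, Atp5f1b to -0.17, Rps12 to 0.048, Lhx6 to 0.018, Socs2 to -0.044, Irf7 to -0.22, RT1-A1 to -0.081 and Mx2 to -0.26. These position values rest on a slope extended over the distance between the groups and are imprecise. With median scaling Cpt2 turned to 0.0049, B2m to 0.053 and Calb1 to 0.0073. Adding the detected share as a covariate turned Irf7 to -0.0064, B2m to 0.0049 and Mx2 to -0.018, and array weights turned B2m to 0.011. With single replicates left out, Cish ran from -0.0018 to 0.0081, B2m from -0.038 to 0.019, Mx2 from -0.0030 to 0.038 and Nrgn from -0.0097 to 0.073. The cause was not tested. Signal over background limits the dim genes, such as Cish and Cep72.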

Other observations

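A few list members outside the groups described above had an unadjusted limma p under 0.05 at 7 days and an adjusted p above 0.6. C1qa, a complement component made by microglia, read 7.79, 7.92, 8.08 and 7.85 in dw/dw saline rats, against 7.81, 7.73, 7.63 and 7.67 in HZ rats, a difference of 0.20 (SE 0.085) with 1 dw/dw saline array inside the HZ range. Hmox2, a heme oxygenase of neurons, differed by 0.10 (SE 0.045), or 0.0051 without HZ replicates 1 and 4, and Dhcr7, the last enzyme of cholesterol synthesis, by -0.10 (SE 0.045). Among striatal markers Drd2, a dopamine receptor, differed by -0.12 (SE 0.045) and Ppp1r1b, the phosphatase regulator DARPP-32, by 0.18 (SE 0.085), and a dimmer probe of Ppp1r1b differed by -0.0060. Of 15 tested genes of glucocorticoid and thyroid hormone signalling, 2 endocrine systems that also act on the hippocampus, 10 had higher and 5 lower values, with a median of 0.0070. None of them was under the unadjusted limit, which 6.6% of all tested probes met.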
